A study of Mus musculus with 3 samples.

Results

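Dcpp1, Dcpp2, Dcpp3, Dmbt1, 2310057J18Rik, Smgc and Pip were followed barcode by barcode in single-cell RNA libraries of the mouse larynx. They are 7 of the 33696 features counted, and each was found by its symbol in the feature table. The members were chosen by measured values of these libraries: Dcpp2 was selected on its difference between Lrig1+ and Lrig1- cells, and the set on having its UMIs mostly in few cells. The concentration of the members and the Lrig1 values of Dcpp2 are therefore given as a description. All 3 libraries came from Lrig1CreERT2/+; ROSA26CAG-LSL-tdTomato/+ mice, in which tamoxifen lets Cre, made from the Lrig1 locus, switch on the red reporter tdTomato. Each library pooled tdTomato-sorted cells of 10 larynges, from 5 males and 5 females, taken 24 h after recombination, and the labels give no age. There is no treated and untreated arm, so the comparisons are between cells of the same library, and a replicate is 1 pool. The feature table has no row for the reporter or for Cre, and the counts cannot show how well the sort worked.

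The libraries held 18068, 10816 and 31646 barcodes with 211727921, 147898790 and 413632222 unique molecular identifiers (UMIs, each counted as 1 captured RNA molecule). Barcodes with 500 to 8000 genes, with 1000 to 40000 UMIs and with a mitochondrial share of 8% or less were kept, unless marked as doublets, which left 13222, 7201 and 24119 cells with a median of 10948.5, 14326 and 10717 UMIs. Libraries 1 and 2 shared 46 barcode sequences, libraries 1 and 3 shared 165 and libraries 2 and 3 shared 96. Library 3 stood apart in its clusters. A cluster of 3771 kept cells came from it alone, led by Lrp1b, Lipf, Cntnap2 and Lyz1, with a median of 5736 UMIs. It held 47 of the 2096 cells of a cluster led by Qrfp and Akr1c14, 54 of the 1033 cells of 1 of the muscle satellite-like clusters and 3 of the 543 endothelial-like cells. Results that rest on the cells of the cluster of library 3 alone are given with and without them. Intervals and limits below cover counting error only.

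Submucosal glands of the airway and larynx release mucins, antibacterial proteins and fluid onto the surface. Their serous cells make products such as lactoferrin (Ltf) and lactoperoxidase (Lpo), and their mucous cells make mucins such as Muc5b together with trefoil factors such as Tff2. The Dcpp genes, for demilune cell and parotid protein, are a family of closely related secreted salivary proteins in the mouse. Dmbt1 encodes a large secreted scavenger receptor protein that binds bacteria, and Pip encodes prolactin-induced protein, a secreted protein of exocrine glands. Smgc encodes submandibular gland protein C, whose transcripts start where those of the gel-forming mucin gene Muc19 start.

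The Dcpp genes lie side by side on the plus strand of chromosome 17 in GRCm39. Dcpp1 (ENSMUSG00000096445) spans chr17:24099850-24101827, Dcpp2 (ENSMUSG00000096278) spans chr17:24099850-24119762 and Dcpp3 (ENSMUSG00000057417) spans chr17:24136432-24138415. Dcpp1 and Dcpp2 overlap because 1 of the 3 annotated Dcpp2 transcripts, Dcpp2-202, begins at the start of Dcpp1. The exon sequence that they share is 34 bases long, chr17:24099850-24099883, at the 5′ end, whereas the assay reads the 3′ end. The 3′ end of Dcpp1 lies in an intron of Dcpp2-202 on the same strand, and how reads there were assigned was not tested. The transcript Dcpp2-201 lies apart from Dcpp1, at chr17:24117695-24119762. The other members lie elsewhere: Dmbt1 (ENSMUSG00000047517) at chr7:130633776-130723357, 2310057J18Rik (ENSMUSG00000015519) at chr10:28848284-28862299 on the minus strand, Smgc (ENSMUSG00000047295) at chr15:91722468-91745636 and Pip (ENSMUSG00000058499) at chr6:41824469-41828999.

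The main Dcpp transcripts have 4 exons each and like lengths of 617, 613 and 610 bases. Their last 300 transcript bases, nearest to where the reads start, are 92% identical between Dcpp1 and Dcpp2, 92.3% between Dcpp1 and Dcpp3 and 97% between Dcpp2 and Dcpp3. They hold 28 positions at which the 3 genes are not all alike. The last 180 coding bases are shown as an example of the differences by which a read can be given to 1 gene. They lie in the last exon at chr17:24101586-24101765, chr17:24119521-24119700 and chr17:24138174-24138353 (GRCm39, plus strand), and capitals mark the 14 of these positions that lie there.
Dcpp1: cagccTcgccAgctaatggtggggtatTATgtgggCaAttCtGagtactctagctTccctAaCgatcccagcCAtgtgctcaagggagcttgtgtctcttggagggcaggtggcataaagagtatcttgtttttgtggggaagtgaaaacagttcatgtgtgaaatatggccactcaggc
Dcpp2: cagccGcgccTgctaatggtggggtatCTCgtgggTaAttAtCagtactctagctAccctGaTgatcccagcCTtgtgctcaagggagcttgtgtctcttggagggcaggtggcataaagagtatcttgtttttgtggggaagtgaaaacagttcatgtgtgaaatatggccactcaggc
Dcpp3: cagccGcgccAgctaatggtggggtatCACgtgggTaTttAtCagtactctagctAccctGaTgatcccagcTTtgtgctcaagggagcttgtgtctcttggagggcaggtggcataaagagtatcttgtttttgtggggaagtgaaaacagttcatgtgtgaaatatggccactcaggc
Dcpp2 and Dcpp3 differ at 4 of these 180 bases, and Dcpp1 differs from each of them at 12. Reads that match more than 1 gene equally well are not counted by the software named in the submitters' processing notes, so the counts are of reads over such differences, and the number of reads lost in this way is not known here. That number may differ between the genes, since Dcpp2 and Dcpp3 are more alike than Dcpp1 is to either.

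The sequence before the transcription start is also close. The 250 bases before the 3 starts are shown because the 3 genes were not always on together (below), and are taken from RefSeq on GRCm38.p6, an older build than the one used above, at chr17:23880626-23880875, chr17:23898472-23898721 and chr17:23917208-23917457, plus strand. Capitals mark the 19 aligned positions that are not the same in all 3, end bases and gaps included.
Dcpp1: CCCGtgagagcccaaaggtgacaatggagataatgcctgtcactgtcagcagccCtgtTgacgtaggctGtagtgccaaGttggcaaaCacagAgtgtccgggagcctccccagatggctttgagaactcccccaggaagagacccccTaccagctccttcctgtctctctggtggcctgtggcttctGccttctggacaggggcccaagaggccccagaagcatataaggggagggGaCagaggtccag
Dcpp2: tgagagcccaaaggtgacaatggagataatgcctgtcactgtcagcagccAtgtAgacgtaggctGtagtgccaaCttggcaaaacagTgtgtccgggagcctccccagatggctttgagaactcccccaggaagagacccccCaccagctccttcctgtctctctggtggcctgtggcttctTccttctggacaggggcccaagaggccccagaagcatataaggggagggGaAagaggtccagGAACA
Dcpp3: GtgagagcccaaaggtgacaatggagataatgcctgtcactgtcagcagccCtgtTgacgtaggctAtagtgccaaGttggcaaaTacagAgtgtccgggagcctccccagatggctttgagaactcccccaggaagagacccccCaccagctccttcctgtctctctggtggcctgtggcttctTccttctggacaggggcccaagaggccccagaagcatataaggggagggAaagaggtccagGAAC
Pairwise identity over these stretches was 93.3% for Dcpp1 and Dcpp2, 94.9% for Dcpp1 and Dcpp3 and 96.0% for Dcpp2 and Dcpp3. The letters TATAA stood on 1 strand or the other in the 250 bases before the start of 6 of the 6 members found in the RefSeq table, and in 7485 of all 32851 promoters there, which is 22.8%. The 3 Dcpp stretches are near copies of each other, so they do not count as 3 separate cases. Dmbt1 was not matched. Such a match is a description of the letters and no evidence of a binding site.

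Dcpp RNA was abundant and was held by a handful of barcodes. Over all deposited barcodes the 3 genes together had 386451, 156171 and 524597 UMIs in libraries 1, 2 and 3. Dcpp3 had 330077, 98445 and 437261 of these, Dcpp2 had 47974, 43861 and 40366, and Dcpp1 had 8400, 13865 and 46970. In library 1 a single barcode held 131480 Dcpp UMIs, which was 71.7% of its 183281 UMIs. The number of barcodes needed to reach 50% of the Dcpp UMIs was 2, 2 and 5, and the number for 90% was 5, 6 and 21. The 10 highest barcodes held 97.1%, 96.2% and 72.5% of them. For comparison, the median feature with at least 100 UMIs had 2.34%, 2.68% and 1.24% of its UMIs in its 10 highest barcodes, and features with more than 50% there were 1.39%, 2.30% and 0.926% of such features.

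2310057J18Rik was about as concentrated and Dmbt1 was not. 2310057J18Rik had 16127, 2611 and 29124 UMIs, of which the 10 highest barcodes held 94.5%, 99.1% and 84.1%. Dmbt1 had 68658, 23215 and 64681 UMIs, and its 10 highest barcodes held 23.3%, 37.0% and 17.4%. Reaching 90% of Dmbt1 took 268, 119 and 416 barcodes. Smgc and Pip were rare. Smgc had 161, 66 and 76 UMIs in 36, 12 and 29 barcodes. Pip had 69 UMIs in 4 barcodes of library 1, 93 UMIs in 28 barcodes of library 3 and 0 in the 10816 barcodes of library 2, which allows a share of barcodes with a UMI of up to 0.0277%.

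**Figure D1:**
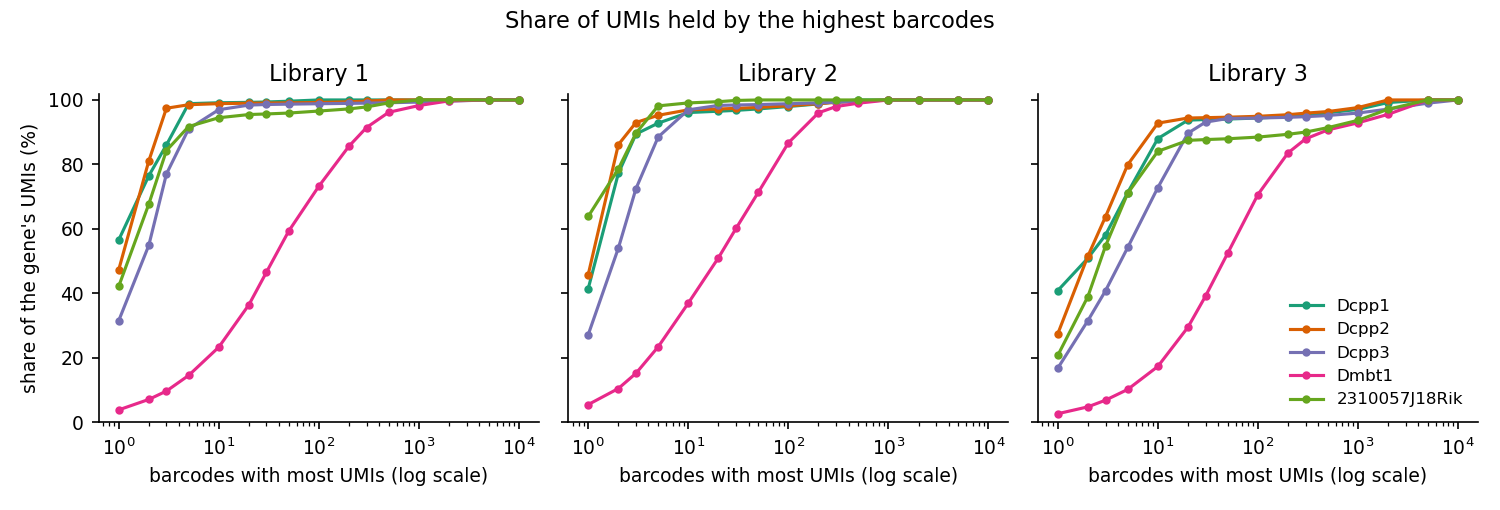
Percent of a gene's UMIs (y axis) held by its highest barcodes (x axis, their number on a log scale), over all deposited barcodes, with a panel for each library and a line for each of Dcpp1, Dcpp2, Dcpp3, Dmbt1 and 2310057J18Rik. The Dcpp3 lines pass 50% at 2, 2 and 5 barcodes, whereas the Dmbt1 lines pass it at 35, 19 and 46.

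Most of this RNA lay in barcodes that the upper UMI limit removes. Barcodes with more than 40000 UMIs numbered 549, 400 and 930. They held 89.9%, 75.4% and 69.5% of all Dcpp UMIs (78.2% ± 10.5, SD, n = 3 libraries), and the kept cells held 9.74%, 21.4% and 27.6% (19.6% ± 9.07). For 2310057J18Rik the barcodes over the limit held 92.8%, 72.6% and 63.4%, and for Dmbt1 59.8%, 53.2% and 27.6%. For Pip they held 68 of the 69 UMIs of library 1 and 59.1% of those of library 3. Smgc was the least affected on average, at 37.9%, 45.5% and 39.5%. All 3 libraries thus had the larger part of their Dcpp and 2310057J18Rik counts outside the cells that the limits keep. The same barcodes took 12.5% to 14.3% of all UMIs.

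Producing barcodes are those with at least 100 Dcpp UMIs that also make up at least 1% of the barcode's UMIs, a limit set after the values had been seen. There were 22, 16 and 40 of them, 78 in all, and they held 98.5%, 97.6% and 94.1% of the Dcpp UMIs. Their Dcpp counts ran from 134 to 131480 UMIs. Just outside the limit, the barcode with the next highest number and at least 1% had 52, 69 and 15 UMIs. Dcpp made up more than 50% of the UMIs of 25 producing barcodes. The highest share was 82.4% in library 1, 83.1% in library 2 and 77.3% in library 3, and the medians were 8.42%, 52.9% and 29.1%. Of the 78, 39 were kept cells, 23 had over 40000 UMIs, 8 were marked as doublets and 8 failed another limit. The kept ones numbered 11, 5 and 23.

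**Figure D2:**
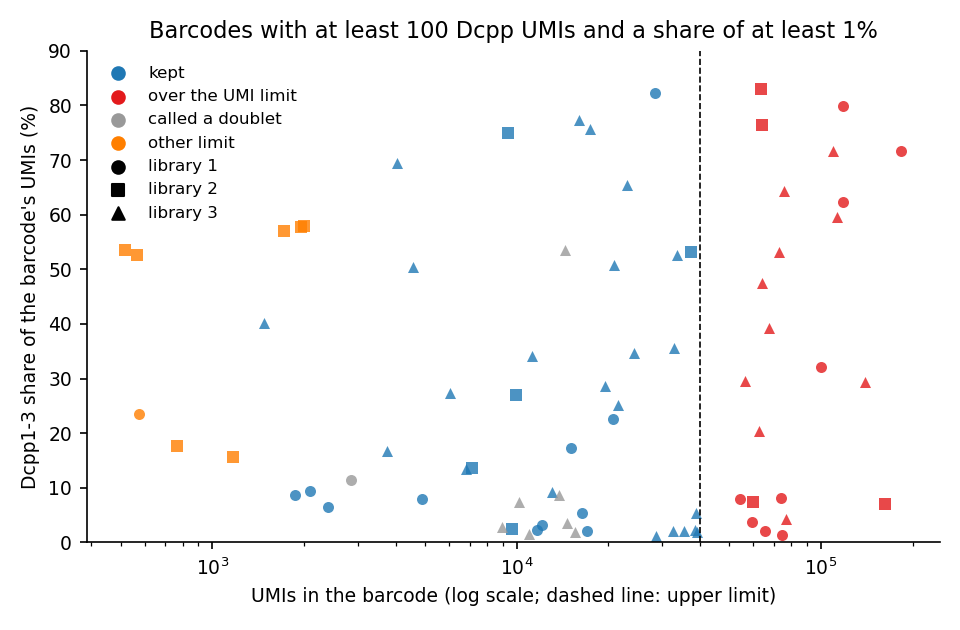
Each point is 1 of the 78 producing barcodes, with the percent of its UMIs that were Dcpp1 to Dcpp3 (y axis) against its total UMIs (x axis, log scale). The shape gives the library, the colour whether the barcode was kept, over the limit of 40000 UMIs (dashed line), marked as a doublet or outside another limit, and high shares occur on both sides of the dashed line.

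Most producing barcodes also held RNA of the serous product Ltf and of the epithelial marker Epcam. Of the 78, 57 had at least 100 UMIs of Ltf, a count that 1837 of all 60530 barcodes reached. An Epcam UMI was found in 66 of them, and as a background in 11.3% and 12.7% of the cells of the fibroblast-like clusters. In a cluster of low UMI counts the share was 20.1%, and 3 of the 6 listed basal cell markers were raised there. On the other side, 8 of the 78 had a UMI of the fibroblast collagen Col1a1 and 3 a UMI of the leukocyte marker Ptprc. Of the 39 kept ones, 33 lay in 1 cluster of 1537 cells (636, 245 and 656 per library), in which 86.5% of cells had an Epcam UMI. It is called the Muc5b cluster here, since it had the most Muc5b, and it carried no name because its leading genes (Slc34a2, Sult1c1, Lman1l, Gp2, Muc5b and Pigr) did not settle 1 of the cell types. All 7 listed markers of secretory cells were raised in it. The exceptions were mostly low. In library 1, 2 kept barcodes with 199 and 163 Dcpp UMIs fell in the macrophage-like cluster, each with 4 or 5 Dmbt1 UMIs, and 1 barcode with 272 fell in a cluster led by Cntn5 and Ntng1. In library 3, barcodes with 2809 and 920 Dcpp UMIs fell in a cluster of low UMI counts, and 1 with 10591 fell in the cluster that only library 3 has.

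In library 2, 7 producing barcodes were over the mitochondrial limit. In 5 of them, with 518 to 2006 UMIs and 11.3% to 24.3% mitochondrial UMIs, Dcpp made up 52.6% to 58.0%. Their mixes were close to each other, with 14.8% to 16.8% Dcpp1, 37.4% to 49.5% Dcpp2 and 35.7% to 45.8% Dcpp3. The other 2 had less Dcpp, 15.7% and 17.7%, and other mixes, with 17.4% and 0% Dcpp1, 9.78% and 17.6% Dcpp2 and 72.8% and 82.4% Dcpp3. What these barcodes contain was not tested. Barcodes over the mitochondrial limit are left out of the Dcpp mixes given next, which concerns the 2 of them with at least 1000 Dcpp UMIs, and are counted in the rest.

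The 3 Dcpp genes were used in different combinations from barcode to barcode. Among the 46 producing barcodes with at least 1000 Dcpp UMIs and at most 8% mitochondrial UMIs, Dcpp3 was the most counted in 45. Dcpp3 alone reached 1% of the Dcpp UMIs in 19 of them, Dcpp3 with Dcpp1 in 9, Dcpp3 with Dcpp2 in 6 and all 3 genes in 12. The median share of Dcpp3 was 94.8% and the lowest 37.5%, while the highest share of Dcpp1 was 39.6% and that of Dcpp2 42.9%. Each kind occurred in more than 1 library. Barcodes with Dcpp3 alone numbered 8, 3 and 8 in the 3 libraries. Of the 46, 21 were kept cells, and whether the others hold more than 1 cell was not tested.

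Single barcodes show how far apart the mixes were. A library 1 barcode had 32213 UMIs of Dcpp3, 1 of Dcpp2 and 0 of Dcpp1, and the count of 0 allows at most 0.00931% Dcpp1. Since its Dcpp3 RNA gave next to no counts of the other 2 genes, reads of Dcpp3 were seldom given to Dcpp1 or Dcpp2 there. Whether reads of Dcpp1 or Dcpp2 were given to Dcpp3 cannot be seen, since Dcpp3 made up at least 37.5% in each of the 46 barcodes. The highest barcode of library 1 had 104036 of Dcpp3, 22692 of Dcpp2 and 4752 of Dcpp1. Library 3 had the opposite pairs side by side. Its highest barcode had 73528 of Dcpp3 with 4722 of Dcpp1 and 10 of Dcpp2, whereas another had 28832 of Dcpp3 with 9725 of Dcpp2 and 86 of Dcpp1. The barcode in which Dcpp3 was not the highest had 19202 of Dcpp1, 18174 of Dcpp3 and 11091 of Dcpp2. In library 2, 1 kept cell had 18166 of Dcpp3, 1692 of Dcpp1 and 4 of Dcpp2, and another had 3711, 287 and 3002. The sequences printed above show how alike the counted ends are, and 26 of the 46 barcodes had Dcpp2 at no more than 0.1% of their Dcpp UMIs, as 15 did for Dcpp1.

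**Figure D3:**
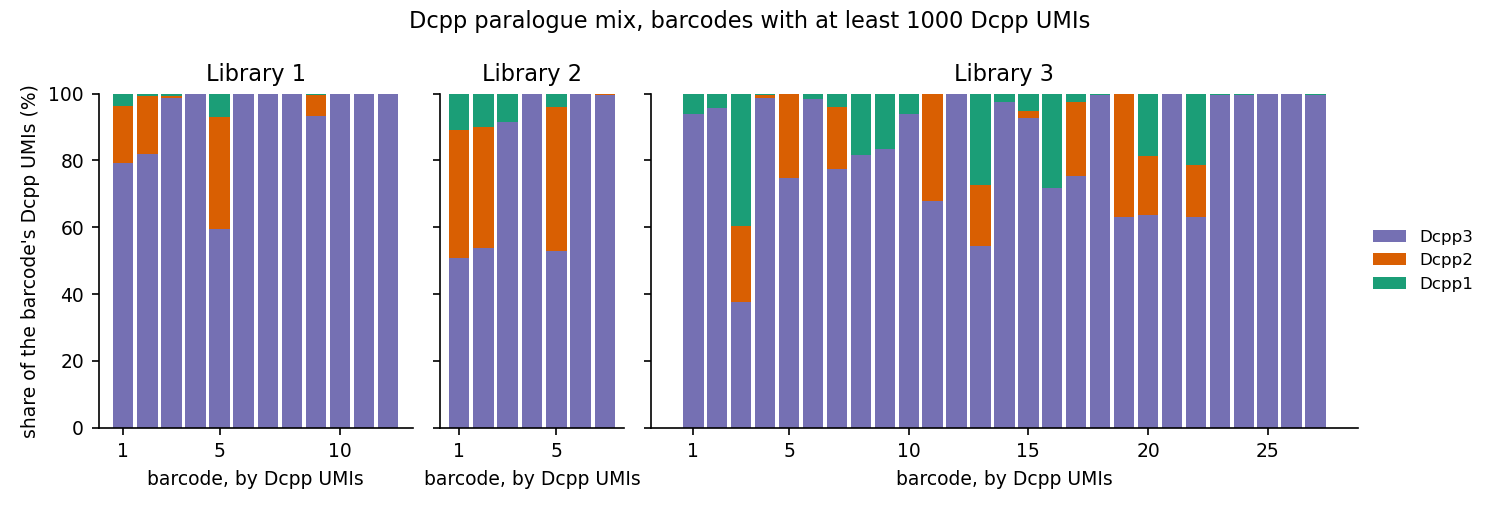
Percent of a barcode's Dcpp UMIs (y axis) that came from Dcpp1, Dcpp2 and Dcpp3, as stacked bars from 0, with 1 bar for each of the 46 barcodes with at least 1000 Dcpp UMIs, in order of their Dcpp UMIs (x axis) and with a panel for each library. Dcpp3 fills nearly the whole bar in 19 of them, and bars with Dcpp1 and hardly any Dcpp2 stand in the same library as bars with Dcpp2 and hardly any Dcpp1.

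The mix pooled over these barcodes therefore differed between libraries. Dcpp1, Dcpp2 and Dcpp3 made up 2.07%, 12.5% and 85.4% in library 1, 8.63%, 27.8% and 63.6% in library 2 and 9.01%, 7.75% and 83.2% in library 3. With 12, 7 and 27 barcodes behind these shares and 2 to 5 of them holding 50% of the UMIs, the pooled mix follows a few barcodes and is not a level of the tissue.

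2310057J18Rik was on in some of the same barcodes. Of 33 barcodes with at least 50 of its UMIs, 19 were Dcpp producing (57.6% of the 33, 24.4% of the 78), 28 had at least 100 UMIs of Dmbt1 and 8 had at least 1000 of Bpifb1, a secreted antibacterial protein of the airway. None of the 33 reached 1000 UMIs of Tff2 or 100 of Muc5b, which allows a share of up to 9.09%, and 94 and 138 of all 60530 barcodes did. Its highest barcode in library 1 had 6801 UMIs beside 32214 of Dcpp, and the third highest had 2679 beside 1 of Dcpp and 17131 of Bpifb1. In library 2 the highest had 1668 beside 2 of Dcpp and 15266 of Bpifb1. In library 3 the highest had 6050 beside 30369 of Dcpp, and a kept cell had 4561, which was 11.8% of its UMIs, beside 2104 of Dcpp. The gene was thus found with Dcpp and with Bpifb1, in different barcodes, and most Dcpp barcodes had little of it, with a median of 0 UMIs.

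Pip was found beside several gland products in its few barcodes. Of 8 barcodes with at least 3 Pip UMIs, 6 had at least 100 of Dmbt1, 5 had at least 50 of 2310057J18Rik, 5 had at least 100 of Ltf, 5 had at least 100 of Sbpl that were at least 1% of their total, 4 were Dcpp producing and 3 had at least 1000 of Bpifb1. The highest had 48 UMIs in library 3, beside 82 of 2310057J18Rik and 5034 of Bpifb1, and 39 UMIs in library 1, beside 4116 of 2310057J18Rik and 131480 of Dcpp. In library 1 the kept cells held 0 Pip UMIs among 13222 cells, so that its Pip can be seen only in barcodes outside the limits.

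Smgc was found mostly beside the mucous products. Of 29 barcodes with at least 3 Smgc UMIs, 21 had at least 10 of Muc19, 21 had at least 100 of Muc5b and 20 had at least 1000 of Tff2. Of the 29, 2 were Dcpp producing, both among the 7 of library 2, where 16 of all 10816 barcodes were Dcpp producing. None had 1000 of Bpifb1 or 3 of Pip, which allows a share of up to 10.3%, and 53 and 8 of all 60530 barcodes did. The highest had 31 UMIs in library 1, beside 81 of Muc19, 2126 of Muc5b and 12015 of Tff2, and 21 UMIs in library 3, beside 67 of Muc19, 761 of Muc5b and 12787 of Tff2. In library 2 it had 18, beside 11 of Muc19 and 5192 of Tff2. Smgc and Muc19 (ENSMUSG00000118670, chr15:91722468-91832447) share their start and strand and overlap over the whole of Smgc, so how reads in the shared part were assigned is uncertain.

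Dmbt1 was made more broadly than the other members. At least 100 UMIs were found in 307 barcodes, of which 258 also had at least 100 of Ltf, 46 were Dcpp producing, 46 had at least 1000 of Bpifb1 and 29 at least 1000 of Tff2. Seen from the other side, 86.8% of the 53 Bpifb1 barcodes, 59.0% of the 78 Dcpp barcodes and 30.9% of the 94 Tff2 barcodes reached 100 UMIs of Dmbt1. The highest values were 2669 in library 1, beside 20225 of Bpifb1, 1286 in library 2, beside 11367 of Dcpp, and 1747 in library 3, in a kept cell in which Dmbt1 was 5.48% of the UMIs. Among kept cells, at least 10 UMIs were found in 39.3%, 39.2% and 39.0% of the Muc5b cluster, against 0.0788%, 0.0573% and 0.0301% of the cells in the other epithelial clusters. In the non-epithelial clusters the share was 0.0604%, 0% (0 of 1720 cells) and 0.0845%. The Muc5b cluster held 90.3%, 95.5% and 87.2% of the Dmbt1 UMIs of kept cells.

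Barcodes with large amounts of Dcpp, Bpifb1 or Tff2 were rare, at 78, 53 and 94 of all 60530, so that few shared ones could be found. Of 222 barcodes that were Dcpp producing or had at least 1000 UMIs of Bpifb1 or of Tff2, 219 passed for 1 product alone, 3 passed for 2 and none for all 3. The 78 Dcpp barcodes included 2 of the Bpifb1 barcodes, 0 of the 94 Tff2 barcodes and 0 of the 138 barcodes with at least 100 UMIs of Muc5b, and each 0 allows up to 3.85% of the 78. Dmbt1 was present in all 3 kinds at different levels, with a median of 144.5 UMIs in Dcpp barcodes, 342 in Bpifb1 barcodes and 21.5 in Tff2 barcodes. Ltf had medians of 381, 139 and 14 over all libraries, but in library 2 the order was another, at 100, 803 and 107. These medians are per barcode and the 3 kinds differ in total UMIs, with medians of 18437.5, 31716 and 23150.5. The limits were set on the values themselves, so the split is a description.

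**Figure D4:**
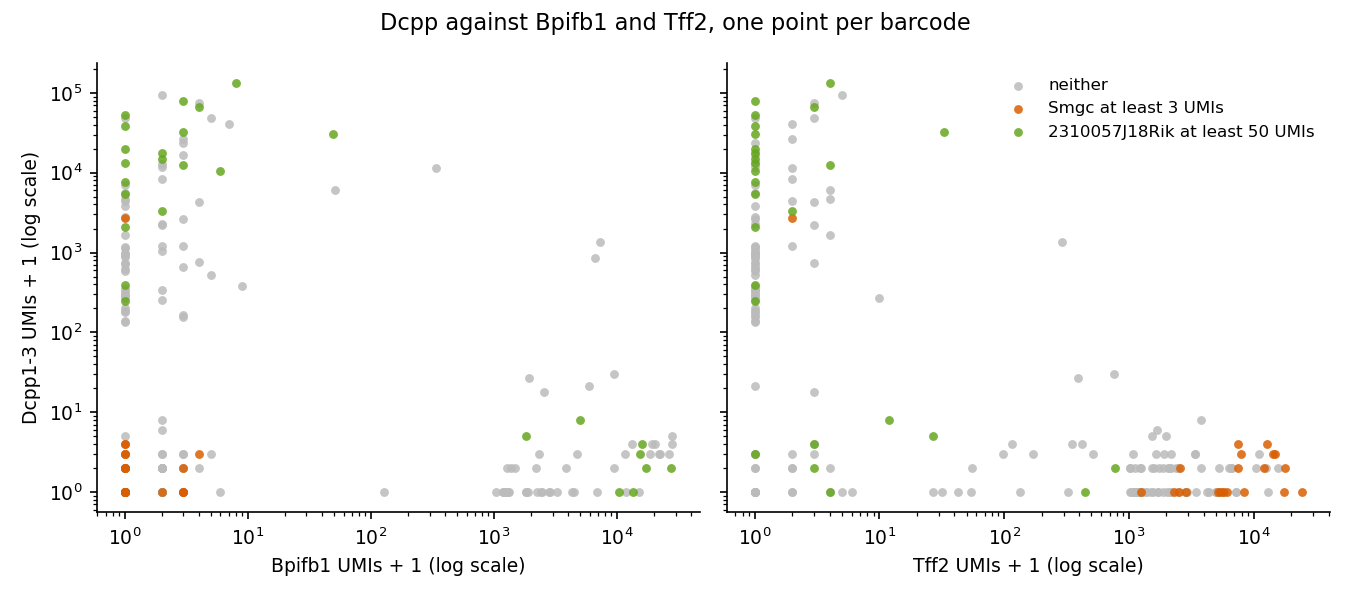
Each point is 1 of the barcodes past the limit for at least 1 of Dcpp, Bpifb1 and Tff2, with its Dcpp UMIs (y axis) against its Bpifb1 UMIs (left, x axis) or Tff2 UMIs (right, x axis), all plus 1 on log scales. Colours mark barcodes with at least 3 Smgc or 50 2310057J18Rik UMIs, and nearly all points lie along the axes, since 219 of 222 passed for 1 product alone.

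Outside the producing barcodes Dcpp was present at a low level in most clusters of every library, and that level varied between clusters. Over the clusters other than the Muc5b cluster, the low-UMI cluster and the cluster of library 3 alone, the median Dcpp level was 23.8, 19.5 and 18.6 CPM (a gene's UMIs in 1000000 UMIs of the cells; 20.7 ± 2.78, n = 3), and the clusters ranged from 15.1 to 33.5, from 10.4 to 73.3 and from 15.8 to 40.2. The low-UMI cluster had 81.5, 57.3 and 35.6 CPM without its producing cells, and the cluster of library 3 alone had 966 (below). A Dcpp UMI was found in 17.8%, 12.7% and 16.8% of fibroblast-like cells, which are not known to make it, at 24.5, 19.1 and 19.0 CPM, with median depths of 10794, 11003.5 and 9657.5 UMIs. The Muc5b cluster had 3690, 8804 and 13128 CPM (8541 ± 4725). Without its producing cells it had 38.7, 94.8 and 82.4 CPM. In that cluster 29.4%, 21.6% and 30.03% of cells had a Dcpp UMI, against a median of 22.0%, 14.4% and 22.1% in the other clusters. With every cell thinned to 5000 UMIs the shares were 15.0%, 13.3% and 18.6% against 9.58%, 6.55% and 8.80%. The share of cells with a UMI says little about Dcpp, since cells of every kind reached it.

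The mix of this low level was near that of the library's producing barcodes in libraries 1 and 3 and further from it in library 2. In library 3 the fibroblast-like cells had 10.4% Dcpp1, 7.16% Dcpp2 and 82.4% Dcpp3 among 335 UMIs, and the 40 producing barcodes had 8.93%, 7.71% and 83.4%, within the 95% Wilson limits of the former. In library 1 the fibroblast-like cells had 1.12%, 8.45% and 90.4% among 627 UMIs, and the producing barcodes had 2.19%, 12.5% and 85.4%, where the Wilson limits of the cells' Dcpp2 share were 6.52% and 10.9%. In library 2 the fibroblast-like cells had 13.3%, 45.9% and 40.8% among 98 UMIs, the basal-like cells 15.7%, 38.4% and 45.9% among 555 UMIs, and the producing barcodes 8.74%, 27.9% and 63.4%. The low-level mix of library 2 lay closer to that of its 5 poor barcodes described above. Dcpp2 had its highest share in library 2 in these cells and in the producing barcodes, whereas Dcpp1 was highest in library 2 in the fibroblast-like and basal-like cells and in library 3 in the producing barcodes. Why the low level has this mix was not tested.

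The cluster of library 3 alone had a raised level without producing cells. Its 3770 cells other than 1 producing cell had 19881 Dcpp UMIs or 966 CPM, and 98.9% of them had at least 1 UMI. The counts were even, with a median of 5 UMIs, a 95th percentile of 10 and a highest value of 21, and the mix was 9.81%, 7.30% and 82.9%. Its level of 2310057J18Rik was 117 CPM and that of Dmbt1 171 CPM, with a UMI in 46.9% and 59.4% of cells. Its leading genes included Lipf, Lyz1, Sbpl and Bpifb1 beside the keratinocyte genes Krt16 and Sprr1a. The part of free RNA in these cells was not tested.

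Dmbt1 was high in the Muc5b cluster with and without the producing cells. It had 2422, 2516 and 4498 CPM there, or 2353, 2233 and 4014 without the Dcpp producing cells, against a median of 7.93, 3.13 and 5.17 in the other clusters. 71.1%, 68.6% and 61.9% of its cells had a Dmbt1 UMI, against 8.32%, 3.91% and 6.14%. 2310057J18Rik had 48.1, 192 and 806 CPM, which fell to 34.3, 1.16 and 10.6 without the Dcpp producing cells, against 2.62, 0 and 2.41 elsewhere. Smgc had 10.6, 9.91 and 3.85 CPM against a median of 0. Pip had 0, 0 and 1.12 CPM in kept cells of the cluster. The Muc5b cluster was the highest in every library for Dcpp, Dmbt1, 2310057J18Rik and Smgc, and the producing cells carried most of that level for Dcpp in each library and for 2310057J18Rik in libraries 2 and 3. In library 1, 2310057J18Rik was more spread: 43 kept cells held 50% of its UMIs, and the cluster without producing cells was still above the low-UMI cluster, at 16.4 CPM, and the highest of the others, at 8.08. The choice of clusters bears on this. At a Leiden resolution of 2, the cluster with the most Muc5b (927 cells) had 558, 7770 and 7852 CPM of Dcpp, and another cluster of 688 cells, which also has Muc5b, Gp2 and Lman1l among its leading genes and a median of 4231.5 UMIs, had 16586, 10711 and 31056. Its level of 2310057J18Rik was higher as well, at 121, 285 and 942 CPM against 30.3, 149 and 755, and its Dmbt1 was 2281, 1600 and 4672 against 2437, 2805 and 4366. At 0.5 the cluster with the most Muc5b had the most Dcpp. The clusters were built without the 7 members and Lrig1, and the differences in these levels were not tested.

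**Figure D5:**
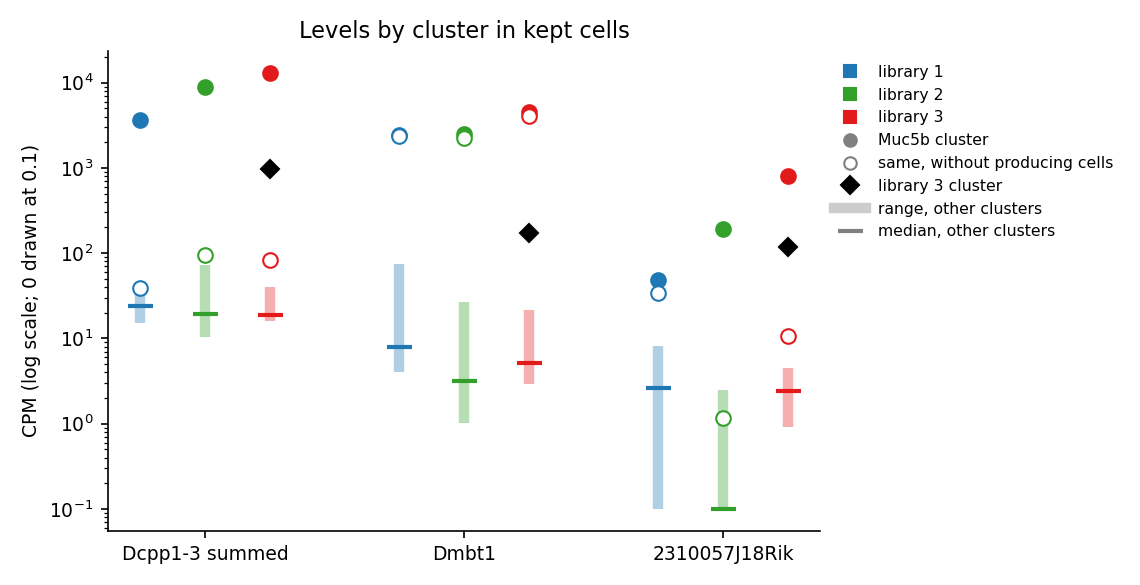
Level of Dcpp, Dmbt1 and 2310057J18Rik in kept cells (y axis, CPM on a log scale with 0 drawn at 0.1) by library (colour), for the Muc5b cluster with and without producing cells (filled and open circles), the cluster of library 3 alone (diamonds) and the range and median of the other clusters (bars and ticks). The Dcpp circles drop from 3690, 8804 and 13128 CPM to 38.7, 94.8 and 82.4 without the producing cells, whereas those of Dmbt1 hardly move.

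The study divided its sequenced cells by whether an Lrig1 UMI was counted. The members were therefore compared between Lrig1+ and Lrig1- kept cells, summed per library. Finding an Lrig1 UMI also depends on how many UMIs a cell has, and Lrig1+ cells had more per cell in each library. In library 1, 5513 Lrig1+ cells had 89483982 UMIs and 7709 Lrig1- cells had 72136839. The part of this depth in the differences below was not tested. Lrig1 encodes a membrane protein that restrains growth factor receptors and marks epithelial stem cells. 6 of the 7 members passed the filter on low counts and Pip did not. With edgeR's quasi-likelihood test and Benjamini-Hochberg adjustment, 0 of the 6 were called, as were 0% of the 19703 genes tested, of which 2248 had an unadjusted p under 0.05. Dcpp2, chosen on this contrast, had a log2 difference of -4.37 ± 0.46 (SE), given as a description. The other tested members were all below 0: Dcpp1 -1.83 ± 0.95, Dcpp3 -1.47 ± 0.84, Dmbt1 -1.01 ± 0.30, 2310057J18Rik -0.34 ± 1.02 and Smgc -1.75 ± 0.85. Single libraries moved most of these values: with 1 library left out Dcpp1 ranged from -3.05 (without library 2) to -0.19 (without library 3), Dcpp3 from -2.31 to -1.06, 2310057J18Rik from -1.25 to -0.14 and Smgc from -2.62 to -0.39, while Dmbt1 ranged from -1.25 to -0.83. The Lrig1+ and Lrig1- cells of 1 library were pooled from the same larynges, and with the library as a block Dmbt1 was called (-1.07 ± 0.17, adjusted p = 0.0199), where 21% of 20397 genes were. Dcpp2 was chosen on this difference, and its value there, -4.45 ± 0.41, is given with no test. Over all deposited barcodes with the block, Dmbt1, 2310057J18Rik, Dcpp1 and Dcpp3 were called and 19.7% of genes were. Since about 1 gene in 5 was called in these fits, a call by itself is not particular to a member. Whether the members were called more often than other genes was not tested.

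The lower Dcpp2 in Lrig1+ cells rested mostly on few cells. Dcpp2 had 115, 95.8 and 101 CPM in Lrig1- cells against 2.20, 7.47 and 5.06 in Lrig1+ cells. A single kept cell with 0 Lrig1 UMIs held 92.2%, 76.0% and 35.2% of the Dcpp2 UMIs of its library. Without that cell the Lrig1- values were 6.45, 10.8 and 62.1 CPM. For the 3 genes together the values were 481, 341 and 965 CPM in Lrig1- cells against 33.4, 281 and 205. In library 2 the highest kept cell was Lrig1+ by 1 Lrig1 UMI, and without it the Lrig1+ value was 20.01 CPM. With that cell, Dcpp1 and Dcpp3 were higher in the Lrig1+ cells of library 2, at 25.3 against 12.3 and 248 against 232 CPM, and without it they were lower, at 3.08 and 9.51. In library 1 the Dcpp1 value of 23.8 CPM in Lrig1- cells fell to 0.638 without 1 cell, below the 6.12 of Lrig1+ cells. With the cells of raised Dcpp defined below left out of both sums, the Dcpp2 difference was -0.68. Those of Dcpp1 and Dcpp3 were -1.04 and -1.05, and that of 2310057J18Rik was -1.50, further from 0 than with all kept cells. Dcpp1 then had 0.376, 2.18 and 11.6 CPM in Lrig1- cells against 0.336, 1.95 and 4.44 in Lrig1+ cells. Dcpp3 had 21.7, 7.54 and 101.5 CPM against 16.5, 6.70 and 38.5, so the gap lay mainly in library 3. The cluster of library 3 alone, apart from those cells, stayed in these sums. In all kept cells Dmbt1 had 187, 153 and 208 CPM against 119, 51.1 and 98.7, and no single cell held more than 9.87% of its UMIs.

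Lrig1 itself had a UMI in 24 of the 78 producing barcodes. By library these were 4 of 22, 3 of 16 and 17 of 40 barcodes, and among the kept ones 2 of 11, 1 of 5 and 8 of 23. In the other cells of the Muc5b cluster the share was 34.7%, 28.3% and 33.5%, in the other epithelial cells 55.2%, 66.2% and 54.9%, and in fibroblast-like cells 26.5%, 33.1% and 35.9%. Counted over UMIs that are not of the 7 members, the Lrig1 level was 32.5 ± 8.15 CPM in kept producing cells, 20.1 ± 7.34 in all producing barcodes, 44.3 ± 6.94 in the rest of the Muc5b cluster, 89.1 ± 5.20 in other epithelial cells and 45.9 ± 10.2 in fibroblast-like cells (mean ± SD, n = 3). The kept producing cells had less than the rest of the Muc5b cluster in each library, at 40.8 against 46.7, 24.5 against 36.5 and 32.2 against 49.8 CPM, with 4, 1 and 11 Lrig1 UMIs behind the former. Their means lay within the sum of the SDs, all producing barcodes lay below the latter by more than that sum, and all 3 groups lay below the other epithelial cells. These differences were not tested.

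What else the cells with Dcpp express was first asked with a low limit. Cells with at least 5 Dcpp UMIs, at least 500 CPM and at least 10 times the level of the non-epithelial cells of their library (37.3, 33.4 and 158 CPM, with the producing cells of those clusters included) were summed per library and tested against the other epithelial cells. There were 58, 98 and 358 of them, but 81.0%, 93.9% and 93.3% had under 100 Dcpp UMIs, 327 of the 358 of library 3 lay in the cluster that only it has, and 12, 18 and 27 lay in the Muc5b cluster. The gland lists hold serous products, mucous products, salivary and granular duct products, and acinar regulators and fluid secretion. Of 68 genes tested from them, 20 were higher and 0 lower, where 1.84% of 17535 genes were higher and 0.0114% lower. Without the cluster of library 3 alone edgeR called 0 of the list genes and 36 genes in all, with 2161 at an unadjusted p under 0.05. The leading rises included the gland genes Sbpl and Lipf, at log2 7.10 ± 0.61 and 5.37 ± 0.63, beside Des and Chodl, which are genes of muscle and its precursor cells, at 6.01 ± 1.17 and 5.34 ± 0.96. In libraries 1 and 2, 19 and 26 of these cells lay in clusters not called epithelial, 5 and 7 of them in the low-UMI cluster. The low limit thus took in cells of other kinds, and the producing cells were compared instead, a choice made after the data had been seen.

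Against the other epithelial cells, the 11, 5 and 23 kept producing cells had more serous and acinar RNA. Of 16800 genes tested, 4.44% were higher and 5.05% lower, and the median log2 difference of all genes was -0.65. In the list of acinar regulators and fluid secretion 16 of 21 genes rose and 1 fell (median 2.87), and in the list of serous products 9 of 19 rose and none fell (median 3.67). In the list of the endoplasmic reticulum and secretory machinery 23 of 40 rose and none fell (median 1.46). Mucous products were mixed, with 7 of 20 higher and 3 lower (median 1.53). The lists of other cell types mostly did not rise: 1 of 12 ductal genes rose and 2 fell, 0 of 7 myoepithelial genes rose and 2 fell, 1 of 10 surface club cell genes rose and 4 fell, and 1 of 15 dissociation response genes rose and 2 fell. Of 5 salivary and granular duct genes tested, Egf alone rose. The lists were drawn up with earlier results of these data known.

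Among serous products, lactoferrin (Ltf) had 54971, 41178 and 69080 CPM in producing cells against 2008, 1457 and 1359 in other epithelial cells, a log2 difference of 5.30 ± 0.52 (adjusted p = 0.000347). Lactoperoxidase (Lpo) had 112, 147 and 129 CPM against 0.268, 0.0928 and 0.357 (9.21 ± 0.51, adjusted p = 4.97e-05). Wfdc18, a small secreted protein with a whey acidic protein domain, had 2374, 18399 and 14000.1 CPM against 70.8, 46.5 and 95.7. For all 3 of these genes the producing cells were higher in each library. In library 2 the Lpo value of the producing cells came from 6 UMIs in 1 cell. Lyz2, a lysozyme, rose by log2 4.14 ± 0.45, and the polymeric immunoglobulin receptor Pigr, which carries IgA across the epithelium, by 4.42 ± 0.55.

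Regulators and channels of acinar cells rose as well. Sox10, a transcription factor of gland acinar cells, had 194, 24.5 and 61.6 CPM against 0.569, 0.196 and 0.302 (log2 8.29 ± 0.74, adjusted p = 0.000234). The Sox10 value of the producing cells of library 2 was a single UMI. Bhlha15, which drives the secretory build-up of acinar cells, rose by 6.91 ± 0.45, and Elf5 and Sox9 by 5.82 ± 0.43 and 4.24 ± 0.36. Xbp1, a regulator of the secretory endoplasmic reticulum, had 642, 905 and 745 CPM against 109, 125 and 116 (2.87 ± 0.25). For fluid secretion, the calcium-activated potassium channel Kcnn4 rose by 6.70 ± 0.45, the tight junction claudin Cldn10 by 5.43 ± 0.33 and the chloride cotransporter Slc12a2 by 3.11 ± 0.40. The water channel Aqp5 rose by 1.65 ± 0.39 (adjusted p = 0.0274), and was not called without library 2 or without library 3. Of the basal and myoepithelial keratin genes, Krt5 fell by 3.01 on the log2 scale, as did the basal regulator Trp63 by 3.99.

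The 10 genes with the largest rise were Mup6, Adcy8, Lpo, Sbpl, Thrsp, Sox10, Gm16120, Drd1, Gm47865 and Wfdc18. Adcy8, a calcium-stimulated adenylate cyclase, had 50.9, 269 and 99.7 CPM against 0.125, 0.0515 and 0.397. Mup6, a member of the major urinary protein family whose genes are near copies of each other so that its counts are uncertain, had 204, 48.9 and 46.9 CPM against 0.0585, 0.0412 and 0.0956. In library 2, 1 UMI in the producing cells is 24.5 CPM, so the Mup6 value there rests on very few UMIs. The 10 largest falls were of genes with 0 UMIs in producing cells. With 3 counts over the producing cells as the floor, Cyp4a12b was at least 22.2-fold lower, Dhrs9 at least 16.3-fold, Flrt2 at least 15.9-fold, Ppp2r2b at least 14.6-fold and Lgi2 at least 14.2-fold. Kctd8, Gpnmb, Tmprss11b, Igf2bp2 and Axl were at least 9.51, 7.94, 7.85, 7.76 and 7.02-fold lower.

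Compared with the other cells of the Muc5b cluster, the producing cells differed in which products they made. All 7 listed markers of secretory cells, Scgb1a1 and Scgb3a2 among them, were raised in that cluster over the other kept cells. How many of its cells are gland cells was not tested, so the comparison is not one among gland cells alone. Of 10216 genes tested, 3.2% were higher and 4.24% lower. The cluster was built from genes other than the 7 members and Lrig1, among them genes tested here. Of the 39 producing cells, 33 lie in it. Mucous products fell more often than they rose: 8 of 17 fell (Muc5b, Muc16, Muc4, Muc1, Tff1, Tff2, Fcgbp and Clca1) and 3 rose (Gp2, Spdef and Creb3l4). Muc5b fell by 5.95 ± 0.55 on the log2 scale (adjusted p = 1.99e-06) and Tff2 by 7.58 ± 0.64. The genes of surface club cells fell with them, 7 of 10, among them the secretoglobin Scgb1a1 by 7.91 ± 0.63 and Scgb3a2 by 6.52 ± 0.53. Serous products were split, with 4 of 17 higher (Lpo, Wfdc18, Tcn2 and Azgp1) and 5 lower (Lyz1, Bpifa1, Wfdc2, Reg3g and Pon1). Ltf, at 22766, 31830.3 and 39931 CPM in the rest of the cluster, differed by 0.76 ± 0.48 (adjusted p = 0.403) and Lyz2 by 0.24 ± 0.43 (adjusted p = 0.801).

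Against the rest of the cluster 9 of 20 acinar genes rose and none fell, as did 13 of 40 genes of the secretory machinery. Over the gland lists, which leave out the secretory machinery, 17 genes were higher, and 6 without library 2 and 9 without library 3. That count thus rested on libraries 2 and 3. Lpo rose by 5.33 ± 0.41, Sox10 by 4.44 ± 0.47, Kcnn4 by 3.12 ± 0.33, Egf by 2.74 ± 0.41 and Cldn10 by 2.17 ± 0.33, and each was still called with the library as a block and without any 1 library. Muc5b, Tff2, Muc1, Muc4, Scgb1a1, Scgb3a2 and Cyp2a5 were still lower in all of those fits. Others were less secure: Bhlha15 and Sox9 (2.36 ± 0.53 and 1.63 ± 0.36) lost their call without library 2 and without library 3, and Foxa2 was called in none of those fits. Adcy8, Mup6, Thrsp and Prss32 had the largest rises, at 6.999 ± 0.52, 6.61 ± 0.63, 5.81 ± 0.50 and 5.63 ± 0.40. Cyp4a12b and Tll1 were at 0 UMIs in the producing cells and at least 42.9-fold and 36.3-fold lower. The remaining lists had few calls: 5 of 7 ductal genes fell, 1 of 3 myoepithelial genes passed as higher (Krt14, at 357, 0 and 55.7 CPM against 19.3, 11.9 and 41.6, with 33 of its UMIs in library 1 from 1 producing cell outside the cluster), Egf was the 1 of 2 salivary genes that rose, and 1 of 14 dissociation genes fell.

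Genes beside Dcpp on chromosome 17 were among those that rose. Of 17 other protein-coding genes within 150 kb of the Dcpp genes, 14 were tested against the other epithelial cells, 3 were higher and 0 lower. Sbpl, spermine binding protein-like, lies at chr17:24172058-24174276 on the minus strand. It had 98010, 113675 and 89658 CPM in the kept producing cells, with the 7 members left out of the UMIs, against 219, 167 and 262 in the other epithelial cells, and differed by log2 8.997 ± 0.52 (adjusted p = 5.18e-05) and, against the rest of the Muc5b cluster, by 4.24 ± 0.55. The highest kept producing cell of each library had 7305, 3543 and 15292 Sbpl UMIs and carried much of these values. Each library also had kept producing cells with 0 or 1 Sbpl UMI. The producing barcodes held 238148 Sbpl UMIs, which was 44.0% of all. Yet of 121 barcodes with at least 100 Sbpl UMIs that were at least 1% of their total, 37 were Dcpp producing (30.6% of the 121, 47.4% of the 78), so the 2 products were also made apart. Prss32, a serine protease gene at chr17:24062829-24078753 on the plus strand, had 112, 367 and 434 CPM in the kept producing cells and 7.22, 2.61 and 8.18 in the rest of the Muc5b cluster, and differed by log2 5.58 ± 0.45 from the other epithelial cells. Paqr4, at chr17:23952371-23959841 on the minus strand, differed by 2.74 ± 0.48 and was called in 2 of the 4 fits with the block or without 1 library.

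Across clusters and libraries the members resembled each other and a few gland genes. Over 71 sums of a cluster in a library, the genes most like Dcpp by Pearson's r of log2(CPM + 1) included Sbpl (0.89), Scgb3a1 (0.86), Dmbt1 (0.86) and Sult1c1 (0.84), of 16495 genes. For Dmbt1 they were Sbpl (0.92), Lipf (0.91), Scgb3a1 (0.90), Gp2 (0.89) and Dcpp3 (0.88). For 2310057J18Rik they were Lipf (0.93), Sbpl (0.90), Dcpp3 (0.90), Bpifb1 (0.88) and Dmbt1 (0.84). Smgc, which had UMIs in 11 of the sums, had Muc19 (0.94), Slc34a2 (0.93), Lman1l (0.93) and Scgb2b2 (0.91) among the genes most like it, and for Pip, with UMIs in 7, the highest was 2310057J18Rik at 0.64. The sums of 1 library are not independent and the Muc5b cluster has the highest values, so these values are a description. Sums over a cluster do not show that 2 products are made by the same cell: Dcpp and Sult1c1 were alike across sums, yet Sult1c1 had 0 UMIs in the producing cells.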

How the data were processed

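The deposited files hold UMI counts per gene and barcode, which the authors made with Cell Ranger 8.0.1 on mm39 per the submitters' processing notes. All 60530 barcodes were read where values are given per barcode. The limits on kept cells were 500 and 8000 genes, 1000 and 40000 UMIs, and a mitochondrial share of 8%. The study words its limits with UMIs and genes the other way round, and that reading was an alternative. Doublets were marked by a score from simulated pairs over 30 principal components, at 0.4% per 1000 barcodes. Clusters were made with scanpy 1.11.5 (2000 variable genes, 15 components, 15 neighbours, Leiden resolution 1), with the 7 members and Lrig1 left out. A cluster was called epithelial where 30% or more of its cells had an Epcam UMI, and was named only from listed markers.

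For each comparison the counts of a group's cells were added up within a library, and the sums were tested in edgeR 4.0.16 (R 4.3.3) by the two-sided quasi-likelihood test with TMM scaling, the default filter on low counts and Benjamini-Hochberg adjustment at 0.05. The 7 members were left out where Dcpp chose the cells. The values after ± are SE for log2 differences and SD over the 3 libraries otherwise. The 2 groups of a library share its pool of larynges, and the deviations of their sums correlated at 0.68, 0.75 and 0.759 over 20502 genes in the Lrig1 comparison and at 0.0495, 0.0235 and 0.129 over 19212 genes in the comparison of producing cells with other epithelial cells. On simulated counts the test recovered 100% of 200 genes changed 4-fold among 19864 in the Lrig1 comparison and 99.5% among 17433 in the low-limit Dcpp comparison, with 2.91% and 4.33% false calls. These counts were drawn with the same spread for every gene and without an effect shared by the 2 sums of a library. Only genes above a set level were changed. The data differ from this, so the recovery does not give the power of the fits on the data. The comparisons of producing cells were not simulated. Named genes were the members, the 10 largest rises and falls that were called at a mean level of 10 CPM or more with 1 direction in every library, the 4 highest genes of each list and the 5 genes most like a member. Further genes of the lists and neighbours were named after their values were seen. 1 gene that this rule names is not reported here. The members and lists were chosen with earlier results of these data known. Alternatives were DESeq2 1.42.0, its size factors, no filter, no doublet removal, other limits for Dcpp, other cells for comparison, the library as a block, and each library left out.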

Additional observations from a re-analysis of the deposited data

Results flagged for a closer look

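A pair of values came from barcodes that the comparisons between groups of kept cells do not use. In library 1, 68 of the 69 Pip UMIs lay in barcodes with more than 40000 UMIs, and its kept cells held none. Over the 3 libraries, barcodes with more than 40000 UMIs held a mean of 78.2% of all Dcpp UMIs.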

How the results depend on the processing

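The Lrig1 comparison called 0 of 6 members. It also called 0 with each library left out (0 in each), no doublet removal, DESeq2's size factors in edgeR and no filter. Leaving out the cluster of library 3 alone gave 0 as well. The paired fit with the library as a replicate block called 2 (Dmbt1 at -1.07, and Dcpp2), where 4292 of 20397 genes were called. DESeq2 called 1 (Dcpp2), where 493 of 19703 genes were called. All deposited barcodes with the block gave 4, where 4169 of 21189 genes were called. Nothing is read from the calls of Dcpp2, which was chosen on this difference.

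For the low Dcpp limit, 20 gland list genes were called. No doublet removal and leaving out the cluster of library 3 alone gave 0, and leaving out 1 library gave 0 to 7 (0 without library 1, 3 without library 2 and 7 without library 3). Comparison with secretory-like cells gave 36. Alternatives chosen after seeing the data gave 33 for 100 UMIs and 10000 CPM, 38 with the block, and 36 and 41 in all deposited barcodes without and with the block. Leaving out 1 library gave 22 to 37 for producing against other epithelial cells. Against the rest of the Muc5b cluster 17 list genes were higher, and 6 to 19 with 1 library left out (6 without library 2, 9 without library 3). The block gave 15 there.

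The share of Dcpp UMIs of kept cells held by cells past the low limit was 90.4%, 97.4% in all barcodes and 58.5% with the limits as the study words them, which kept 4432, 1549 and 9914 cells. Leaving out 1 library gave 87.9% to 93.2%, and leaving out the cluster of library 3 alone gave 93.9%. The top 10 kept cells held 84.4% of Dcpp, 50.9% with the study's wording and 80.1% to 90.7% with 1 library left out. At Leiden resolutions of 0.5 and 2 the cluster with the most Muc5b had a mean of 4834 and 5393 CPM of Dcpp, against 8541 at 1. At 2 it was no longer the cluster with the most Dcpp, which had 19451. With 3 pools, and 5 to 23 kept producing cells in each, small differences could not be seen.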
